A study of Homo sapiens with 6 samples.

Results

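The ERBB family consists of 4 cell surface receptors, EGFR, ERBB2, ERBB3 and ERBB4, and is described here with 6 of its ligands, AREG, EREG, TGFA, HBEGF, BTC and NRG1. These 10 genes were taken by gene name from a deposited table of 58735 gene rows, and each name matched 1 row. Huh7, the cell line used for every library, comes from a human liver cancer and was cultured in RPMI-1640 with fetal bovine serum. The first group of 3 libraries carried a control short hairpin RNA (shcontrol) and the second group of 3 a hairpin that lowers TRIM15 (shTRIM15), a ubiquitin ligase gene. The series' title concerns TRIM15, the AKT and FOXO1 axis and sensitivity to tyrosine kinase inhibitors. The number of hairpins, their sequences, the time after their introduction and whether replicates are separate cultures are not given in the sources used here. P-values therefore measure the spread between these libraries, which may be technical.

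ERBB receptors are single-pass membrane proteins that pair when a ligand binds. EGFR, ERBB2 and ERBB4 carry active tyrosine kinases, ERBB2 has no known ligand of its own, and ERBB3 has very weak kinase activity and signals mainly as the partner of another receptor, with many docking sites for PI3K. AREG and TGFA bind EGFR, while HBEGF, BTC and EREG bind both EGFR and ERBB4. NRG1 binds ERBB3 and ERBB4. The ligands are made as membrane-anchored precursors and released by ADAM proteases. In liver, EGFR signalling is known for its part in regeneration, and FOXO factors, which AKT inhibits, are known to raise ERBB3 transcription.

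Values are FPKM, that is, reads per length of the gene and per depth of the library. The length is 1 fixed value per gene, such as 10321 bases for ERBB2 and 1648 for AREG. It may differ from the length of the transcripts that Huh7 cells use, so levels, shares and ratios between genes are approximate. A comparison of 1 gene between the groups uses the same length on both sides. Whole reads recovered from the FPKM values summed to between 17332508 and 19556855 per library. A log2 fold change is the difference of log2(FPKM + 1), knockdown minus control, which understates changes of genes near 1 FPKM, and its standard error (SE), 95% interval and p come from two-sided limma tests, with p adjusted by Benjamini-Hochberg across 14847 genes. These genes reached 0.5 FPKM in 3 or more libraries, and the threshold was an adjusted p of 0.05. The targeted gene, TRIM15 (chromosome 6), was at 5.17, 5.09 and 4.88 FPKM with the control hairpin and at 3.23, 2.11 and 2.51 with its own (51.8% of control). All 10 hepatocyte markers on the list used were above the filter, and all 6 endothelial markers were below 0.5 FPKM in every library. In bulk RNA, fewer cells of a type and less RNA per cell cannot be told apart.

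One member of the family passed the test. ERBB3 fell to 84.5% of its control level, while EGFR, ERBB2 and ERBB4 were at 97.7%, 98.3% and 99.2% of theirs. AREG, the ligand with the highest level, was at 106% of control, EREG at 93.3%, HBEGF at 78.3% and BTC at 128%, and none of these 4 passed. Of the 10 members, 8 passed the filter and were tested, with 0 higher and 1 lower by limma at adjusted p under 0.05. At an unadjusted p under 0.05 there were 2, ERBB3 and HBEGF, both lower, where 32.7% of all genes tested passed. Voom on whole reads also called 1 member, and 28.2% of all genes. Over all genes tested 19.0% were called, 8.93% higher and 10.1% lower, so 1 call among 8 is near the background. TGFA and NRG1 were under the filter and are given as values.

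**Figure D1:**
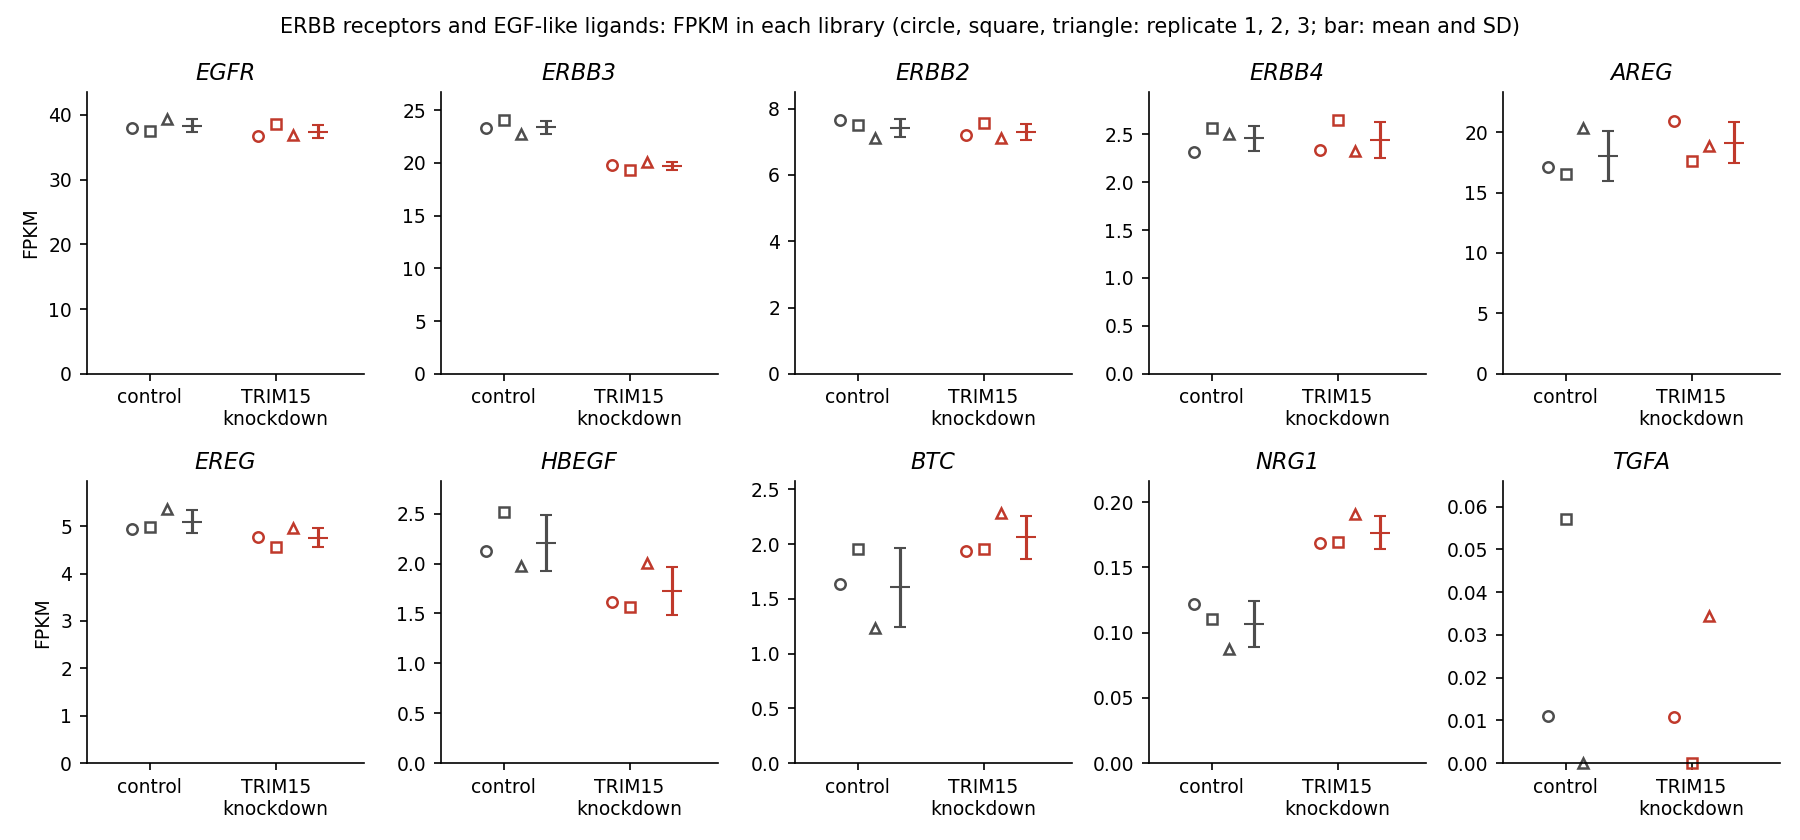
FPKM (vertical axes, linear, from 0, a scale for each gene) of the 10 members in 3 control and 3 TRIM15 knockdown libraries; symbols are single libraries and bars the mean and SD, left out for TGFA, which was at 0 in some libraries. The ERBB3 libraries separate by group (22.7 to 24.0 against 19.3 to 20.1), as do those of NRG1 at levels under 0.2 FPKM.

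EGFR (ENSG00000146648, chromosome 7, 55019021 to 55211628 on GRCh38) had the highest level of the family. It was at 37.9, 37.5 and 39.4 FPKM in control replicates 1 to 3 and at 36.8, 38.5 and 36.9 in the knockdown replicates, so the groups overlapped. Its mean level was above that of 92.9% of protein-coding genes with any reads. The log2 fold change was -0.03 (95% interval -0.10 to 0.04, limma adjusted p = 0.504). With 8107 to 9527 reads per library, EGFR was the most deeply covered member, and the interval spans 0.931 to 1.03 times the control level. The antisense gene EGFR-AS1 overlaps EGFR and was at 2.11 ± 0.175 and 2.62 ± 0.202 FPKM (SD, n = 3; limma adjusted p = 0.0711). The use of strand in counting is not given in the sources, so reads of such pairs cannot be told apart.

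ERBB3 (ENSG00000065361, chromosome 12, 56076799 to 56103505) ranked after EGFR among the receptors. Its 3 control values were 23.3, 24.0 and 22.7 FPKM, and its 3 knockdown values 19.8, 19.3 and 20.1. Every knockdown library lay below every control library, as was the case in 1 direction or the other for 37.8% of genes tested. The means were 23.3 ± 0.658 and 19.7 ± 0.390 FPKM (SD, n = 3), with a log2 fold change of -0.23 (SE 0.0301, 95% interval -0.30 to -0.16, limma adjusted p = 0.00314). The two-sided exact permutation test gave p = 0.1, the smallest that 3 against 3 libraries allow. The fall was past the threshold in all 15 alternative settings run, including each left-out library, with log2 fold changes from -0.25 to -0.21.

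ERBB2 (ENSG00000141736, chromosome 17, 39687914 to 39730426), the ligandless partner, was at 7.65, 7.50 and 7.13 FPKM in control and 7.21, 7.57 and 7.12 in knockdown. Its libraries overlapped, and the log2 fold change was -0.02 (95% interval -0.12 to 0.07, limma adjusted p = 0.756). Both genes that overlap it on the opposite strand, MIEN1 and PGAP3, were measured, at 6.69 ± 0.339 and 7.39 ± 0.221 FPKM for MIEN1 and 2.20 ± 0.0773 and 2.19 ± 0.170 FPKM for PGAP3 (SD, n = 3). ERBB4 (ENSG00000178568, chromosome 2, 211375717 to 212538841), a receptor for neuregulins with an active kinase, was at 2.31, 2.56 and 2.50 FPKM in control and 2.33, 2.65 and 2.33 in knockdown. Its log2 fold change was -0.01 (95% interval -0.16 to 0.14, limma adjusted p = 0.941), and its sign differed between settings.

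ERBB3 took a smaller part of the summed receptor FPKM in the knockdown. The 4 receptors summed to 71.1, 71.6 and 71.8 FPKM in control and 66.1, 68.0 and 66.4 in knockdown. ERBB3 made up 32.7% ± 0.942 of this sum in control and 29.5% ± 0.990 in knockdown, and EGFR 53.5% ± 1.28 and 55.9% ± 0.583 (SD, n = 3). EGFR itself was at 97.7% of its control level, so its share rose because the sum fell. The ratio of ERBB3 to EGFR went from 0.611 ± 0.0320 to 0.528 ± 0.0231 and that of ERBB3 to ERBB2 from 3.15 ± 0.0929 to 2.71 ± 0.139 (SD, n = 3). Within the libraries, the ratios of ERBB3 to EGFR, ERBB2 and ERBB4 did not overlap between groups, while the ratio of EGFR to ERBB2 did (5.16 ± 0.321 and 5.12 ± 0.0526, SD, n = 3). The 3 ratios with ERBB3 share that gene, whose own libraries separated by group, so they are not separate observations. The exact permutation p was 0.1, the smallest allowed, for each of the 3 ratios with ERBB3 and 1.0 for the other (0.133 and 1.0 adjusted over these 4 ratios). At this number of libraries no ratio could pass the threshold.

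**Figure D2:**
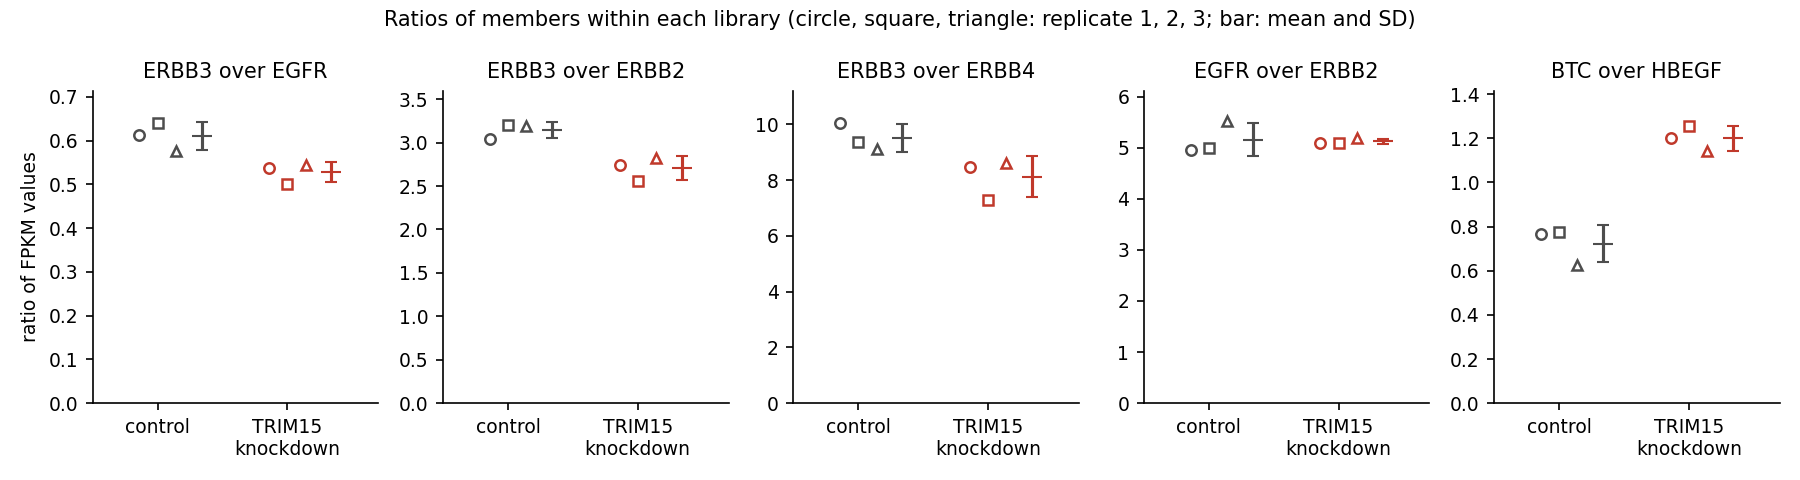
Ratios of FPKM values within each library (vertical axes, linear, from 0) for 3 control and 3 knockdown libraries; symbols are libraries and bars the mean and SD. The ratios of ERBB3 to each other receptor are lower in all knockdown libraries, EGFR to ERBB2 overlaps, and BTC to HBEGF is below 1 in control and above 1 in knockdown.

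Genes with certain words in their 3′ UTR were called lower more often here, and ERBB3 holds one of these words. Short hairpin RNAs are cut into small guide RNAs, which can pair with such words in other transcripts. All 15846 words of 7 bases found in the longest annotated 3′ UTR of at least 100 of 11516 tested genes were read on the transcript strand. Each was ranked by regressing log2 fold change on its presence beside the GC share and log length of the 3′ UTR. ATGAATA and TGAATAA ranked as the most negative. They overlap by 6 bases, were chosen on these same fold changes, and are therefore a description. Of the 3235 genes with at least 1 of them, 26.6% were called lower and 3.62% higher, with a median log2 fold change of -0.07. Of the 8281 genes with neither, 6.38% were called lower and 13.6% higher, with a median of 0.03. Unlike the ranking, these shares and medians are not adjusted for the length or GC share of the 3′ UTR. They therefore do not separate the words from those properties.

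The sites in the members are printed 5′ to 3′ on the transcript strand from GENCODE 29, with the word in capitals, because they show where the receptor that fell and a receptor and a ligand that did not pass carry the same kind of word.
ERBB3: tatacgtgtcTGAATAAaaatgccaaa
ERBB4: gaaggaaaaaATGAATAgttaaaacaa
BTC: aactagggaaATGAATAgagatggaaa
The ERBB3 word lies at chr12:56103478-56103484 (plus strand), at position 1423 of a 3′ UTR of 1450 bases and 21 bases before the annotated transcript end. There it overlaps AATAAA, the canonical polyadenylation signal. The ERBB4 word is at chr2:211380869-211380875 (minus strand), position 2740 of 7898, and the BTC word at chr4:74745831-74745837 (minus strand), position 840 of 1918. EGFR, ERBB2, AREG, EREG and HBEGF have neither word in 3′ UTRs of 6011, 618, 269, 3943 and 1456 bases. Which 3′ UTR ends Huh7 cells use was not measured.

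**Figure D3:**
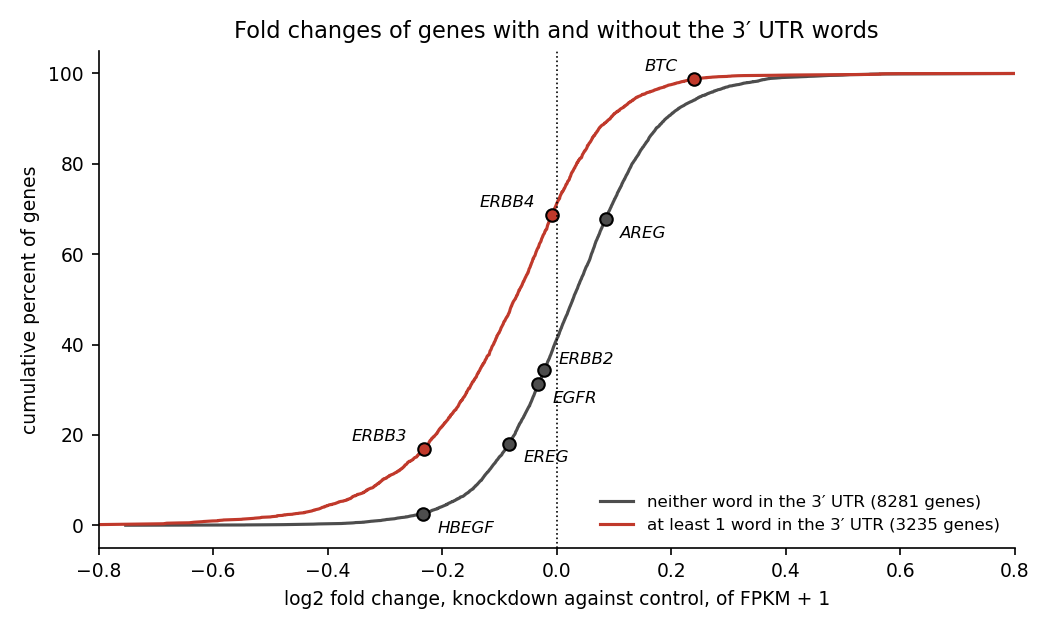
Cumulative percent of genes (vertical axis) by log2 fold change of FPKM + 1, knockdown against control (horizontal axis, shown from -0.8 to 0.8), for 3235 tested genes with at least 1 of the 2 words in the 3′ UTR and 8281 with neither; points mark the members on the curve they belong to. The curve of genes with a word lies to the left, and ERBB3 is on it at -0.23, with ERBB4 at -0.01 and BTC at 0.24. The curves are not adjusted for the length or GC share of the 3′ UTR.

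Among the ligands, AREG (amphiregulin, ENSG00000109321, chromosome 4, 74445134 to 74455009) was at 17.1, 16.5 and 20.4 FPKM in control and 20.9, 17.6 and 18.8 in knockdown. Control replicate 3 and knockdown replicate 1 were high, and the groups overlapped. The log2 fold change was 0.09 (95% interval -0.12 to 0.29, limma adjusted p = 0.564). With 1 library left out it ranged from 0.02 without knockdown replicate 1 to 0.17 without control replicate 3. AREG varied more between replicates than most genes of its level: its coefficient of variation was 11.5% in control and 8.79% in knockdown, against medians of 3.40% and 2.70% in 1145 tested protein-coding genes within 1.25-fold of its mean FPKM. These values lie at the 99.1st and 98.7th percentile of those genes. Counting error for its reads would give 4.33% and 4.12%.

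EREG (epiregulin, ENSG00000124882, chromosome 4, 74365143 to 74388751) lies near AREG on the same strand. It was at 4.94, 4.98 and 5.37 FPKM in control and 4.77, 4.56 and 4.95 in knockdown, with 1 knockdown library reaching into the control range. The log2 fold change was -0.08 (95% interval -0.19 to 0.03, limma adjusted p = 0.286), and -0.05 without control replicate 3. AREG over EREG was 3.52 ± 0.245 in control and 4.02 ± 0.326 in knockdown (SD, n = 3). The ranges nearly touched, with a highest control ratio of 3.793 and a lowest knockdown ratio of 3.797. This ratio and that of BTC to HBEGF were chosen after the values were seen and are given as a description.

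HBEGF (heparin-binding ligand, ENSG00000113070, chromosome 5, 140332843 to 140346631) was at 2.13, 2.52 and 1.97 FPKM in control and 1.62, 1.56 and 2.0 in knockdown. All 3 knockdown libraries were below the control mean, but replicate 3 reached into the control range. Its log2 fold change of -0.23 was as large as that of ERBB3, with a wider 95% interval (-0.45 to -0.02) and limma adjusted p = 0.13 (unadjusted p = 0.0394). HBEGF had 92 to 134 reads per library, and ERBB3 3189 to 3836.

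BTC (betacellulin, ENSG00000174808, chromosome 4, 74744759 to 74794686) was at 1.63, 1.95 and 1.23 FPKM in control and 1.94, 1.96 and 2.29 in knockdown. All 3 knockdown libraries were above the control mean, and control replicate 2 reached into their range. The log2 fold change was 0.24 (95% interval -0.02 to 0.50, limma adjusted p = 0.184), from 63 to 113 reads per library. It was 0.13 without control replicate 3, the lowest library, and 0.36 with a pseudocount of 0.1. The order of this pair differed between the groups: BTC over HBEGF was 0.767, 0.776 and 0.625 under the control hairpin and 1.2, 1.26 and 1.14 under the TRIM15 hairpin.

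NRG1 (neuregulin 1, ENSG00000157168, chromosome 8, 31639386 to 32767959) stayed far below the filter. It had 25, 22 and 18 reads in control and 36, 38 and 38 in knockdown, or 0.122, 0.110 and 0.0875 FPKM against 0.168, 0.170 and 0.191. The groups did not overlap, which held for 6.66% of the genes that had reads but were not tested. That set takes in genes with reads in as few as 1 library. Among genes tested the share was 37.8%, and neither share is for genes of NRG1's read depth. Summed over libraries, 65 control reads have an exact Poisson 95% interval of 50.2 to 82.8 and 112 knockdown reads one of 92.2 to 135, which cover counting error alone. In a limma fit with no filter its adjusted p was 0.249 (unadjusted p = 0.0372), and the exact permutation p was 0.1. TGFA (transforming growth factor alpha, ENSG00000163235, chromosome 2, 70447280 to 70554193) had 1, 5 and 0 reads in control and 1, 0 and 3 in knockdown, which is too few for a comparison.

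**Figure D4:**
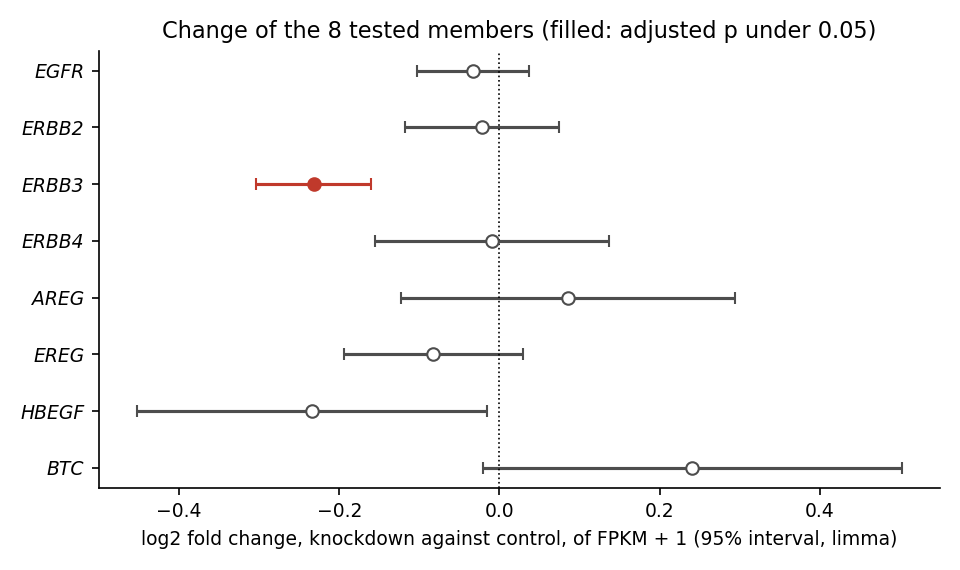
Log2 fold change of FPKM + 1, knockdown against control (horizontal axis), with 95% intervals from limma for the 8 members tested. ERBB3, at -0.23, is the filled point, while HBEGF has a similar value on this scale with a wider interval. The intervals of EGFR and ERBB2 stay within 0.12 of 0.

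By mean FPKM, the order over all libraries was EGFR, ERBB3, AREG, ERBB2, EREG, ERBB4, HBEGF, BTC, NRG1 and TGFA. In control ERBB3 was above AREG in every library, whereas in knockdown AREG reached 20.9 FPKM against a highest ERBB3 value of 20.1, so these neighbours overlapped there. ERBB4 and HBEGF overlapped in control, and HBEGF and BTC overlapped over all libraries. The summed level of the 6 ligands was 27.0 ± 1.72 FPKM under the control hairpin against 27.9 ± 1.82 (SD, n = 3), of which AREG made up 66.4% ± 3.50 and 68.6% ± 2.34. Of the other ligand genes of this family, EGF, EPGN, NRG2, NRG3 and NRG4, 0 of 5 passed the filter, and their levels were in the range of NRG1 and TGFA or, for NRG3, above it. NRG3, another neuregulin, had 25, 37 and 31 reads in control and 47, 55 and 51 in knockdown (0.341 ± 0.0704 and 0.538 ± 0.0419 FPKM, SD, n = 3). As for NRG1 its libraries did not overlap, and limma with no filter gave adjusted p = 0.232 (unadjusted p = 0.0328). NRG2 had 0 reads in each library.

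The nearest profiles to ERBB3, by root mean square distance of centred log2(FPKM + 1) values over the 6 libraries among 6819 protein-coding genes, were those of HNRNPLL (distance 0.0160), ERP44 (0.0174) and C12orf49 (0.0220). ERP44 went from 22.2 ± 0.547 to 18.8 ± 0.383 FPKM (SD, n = 3). For EGFR the nearest were NSL1 (0.0076), EIF2S3 (0.0114) and ALCAM (0.0119), for ERBB2 FNBP1L (0.00887), CITED2 (0.0123) and FLNC (0.0126), and for ERBB4 C5orf34 (0.0177), ASH1L (0.0215) and ADRA2C (0.0215). All were picked for likeness over these same 6 libraries, so their resemblance to the receptors, with the fall of ERP44, follows from the choice. Within 50 kb of ERBB3 on chromosome 12, PA2G4, which encodes an ERBB3-binding protein, went from 57.7 ± 0.817 to 54.0 ± 0.832 FPKM (log2 fold change -0.09, limma adjusted p = 0.0264), and the ribosomal protein gene RPS26 was also lower (-0.14). RPL41, ESYT1, MYL6B, ZC3H10 and IKZF4 in this window did not pass.

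Of 11 listed genes that act in release of the ligands, 8 were tested, with 1 higher and 1 lower by limma and a median log2 fold change of 0.01 (0.00143 over all genes tested). Here and for the lists below, the shares over all genes tested were 8.93% higher and 10.1% lower. ADAM17, the main protease for AREG, HBEGF and TGFA, was at 3.17 ± 0.233 and 2.81 ± 0.140 FPKM (SD, n = 3; -0.13, adjusted p = 0.186), and ADAM10, which releases BTC, at 9.24 ± 0.348 and 9.08 ± 0.243 FPKM. ADAM9, a related protease, fell from 104, 109 and 111 FPKM to 94.3, 96.8 and 92.5 (-0.19). TSPAN15, a tetraspanin that partners ADAM10, rose from 20.2, 20.6 and 20.9 to 23.7, 25.4 and 24.4 FPKM (0.24). The groups did not overlap for either gene, as was the case for 37.8% of all genes tested. ADAM17's regulators RHBDF1, RHBDF2 and FRMD8 were at log2 fold changes of 0.00228, 0.03 and 0.01 and did not pass.

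Among 10 partners of the receptors at the membrane, 7 were tested, with 1 higher, 2 lower and a median log2 fold change of -0.10. SDC1, a heparan sulfate proteoglycan of the syndecan family, rose from 18.9, 18.6 and 18.0 FPKM in control to 24.3, 23.8 and 24.6 in knockdown (0.37, limma adjusted p = 0.00048). SDC4, of the same family, fell from 205, 203 and 211 FPKM to 180, 181 and 182 (-0.19, adjusted p = 0.00123). The libraries of both genes separated by group, in opposite directions. Of the 7 partners tested, 2 separated upward and 4 downward, where 37.8% of all genes tested separated in either direction. MET, the receptor of hepatocyte growth factor, fell from 17.7 ± 0.835 to 15.0 ± 0.512 FPKM (SD, n = 3; -0.23).

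Of 31 listed adaptors and carriers of the receptor signal, 30 were tested, with 1 higher and 7 lower by limma and a median log2 fold change of -0.05. The shares over all genes tested were 8.93% higher and 10.1% lower. NRAS, a RAS GTPase, went from 38.7, 39.3 and 39.5 FPKM to 31.9, 29.6 and 30.0 (-0.35), and SOS1, which loads RAS with GTP, from 6.90, 7.16 and 7.0 to 5.94, 5.88 and 5.96 (-0.21). In both genes all knockdown libraries lay below all control libraries. This held for 13 of the 30 carriers tested, and 5 separated upward, where 37.8% of all genes tested separated in either direction. GRB2 and SHC1, the adaptors that bind the phosphorylated receptors, did not pass (0.05 and 0.04). PIK3R1, the PI3K regulatory subunit, fell (-0.22), but without control replicate 2 or knockdown replicate 3 its adjusted p was 0.0519 and 0.0503. SOS2 (-0.24) lost its call without control replicate 1 or 3 (0.0913 and 0.0942) or any of knockdown replicates 1 to 3 (0.0866, 0.086 and 0.0945), as did PLCG1 (0.19), a phospholipase that EGFR activates (0.0624, 0.0602, 0.0703, 0.0533 and 0.0732). With any 1 library left out the count of lower genes was 4 or 5; it was 4 without control replicate 2, knockdown replicate 1 or knockdown replicate 3.

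Inhibitors of the receptors and proteins of their turnover had 1 higher and 2 lower of 27 tested, with a median log2 fold change of -0.000373. ERRFI1, an inhibitor of the EGFR kinase that EGFR signalling induces, was at 24.2, 23.7 and 23.0 FPKM in control and 25.3, 23.4 and 22.4 in knockdown (limma adjusted p = 0.973). RNF41, a ubiquitin ligase for ERBB3, was at 8.24 ± 0.590 and 8.61 ± 0.496 FPKM (SD, n = 3), and CBL, one for EGFR, at 4.43 ± 0.262 and 4.07 ± 0.118; neither passed. PTPN1, a phosphatase of EGFR, rose (0.16), and ITCH (-0.11) and SOCS5 (-0.22) fell. PTPN1 missed the threshold without knockdown replicate 1 or 3 (adjusted p = 0.0506 and 0.051), ITCH without control replicate 2 or 3 or any 1 knockdown library (0.0602 to 0.0829), and SOCS5 likewise (0.0733 to 0.0878). None of the 27 was called without knockdown replicate 1 or 3.

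Genes that EGF is known to induce moved in both directions, with more rises than falls. Of 30 listed, 27 were tested, with 11 higher and 4 lower by limma and a median log2 fold change of 0.12. Over all genes tested 8.93% were higher and 10.1% lower. The list was chosen with earlier results of these data known, so its count is a description. EGR1, an early response transcription factor, went from 1.55, 1.12 and 1.33 FPKM to 2.18, 2.21 and 2.83 (0.54), ATF3 from 9.90, 9.93 and 10.3 to 14.7, 13.4 and 14.3 (0.45), and IER2 from 12 ± 0.955 to 15.9 ± 0.145 (SD, n = 3; 0.38). FOSB also rose (0.44), from 0.359 ± 0.0960 to 0.837 ± 0.0764 FPKM (1.05 on the log2 scale with a pseudocount of 0.1). FOSB lost its call without control replicate 1 or 3 or knockdown replicate 1 or 2 (limma adjusted p = 0.0543, 0.0632, 0.0729 and 0.0745). All its control libraries were below 0.5 FPKM, so it passed the filter only through its knockdown libraries, and its call adds no separate support. With a filter of 1 FPKM in 3 libraries FOSB was not tested, and 10 of 24 listed genes were higher and 5 lower. CCND1, the cyclin D1 gene, fell from 59.5, 60.8 and 62.5 FPKM to 41.1, 41.7 and 40.6 (-0.56), and DUSP4, an ERK phosphatase, by 0.24 on the log2 scale. JUNB fell too (-0.20). VEGFA (-0.11) lost its call with any 1 library left out (0.0695 to 0.117). Protein and phosphorylation were not measured, so receptor activity cannot be read from these values.

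Of 8 tested transcription factors that act on ERBB genes, 0 were higher and 1 was lower by limma. At an unadjusted p under 0.05 there were 2, TEAD1 and HNF4A, a hepatocyte factor named after its value was seen (0.08, limma adjusted p = 0.0634), against 32.7% of all genes at that threshold. FOXO1 was at 2.08, 2.19 and 2.09 FPKM in control and 1.72, 2.18 and 1.75 in knockdown (log2 fold change -0.12, limma adjusted p = 0.34), with knockdown replicate 2 in the control range. FOXO3, a second FOXO factor, was at 7.33 ± 0.158 and 7.31 ± 0.275 FPKM (SD, n = 3). FOXO4 was at 1.71 ± 0.219 and 1.33 ± 0.307 FPKM (-0.22, limma adjusted p = 0.222), and its groups overlapped. TEAD1, which binds DNA with YAP1, fell (-0.13), but not past the threshold when control replicate 1 or 3 was left out (adjusted p = 0.0534 and 0.0596), nor when knockdown replicate 1 or 3 was (0.0757 and 0.0682).

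**Figure D5:**
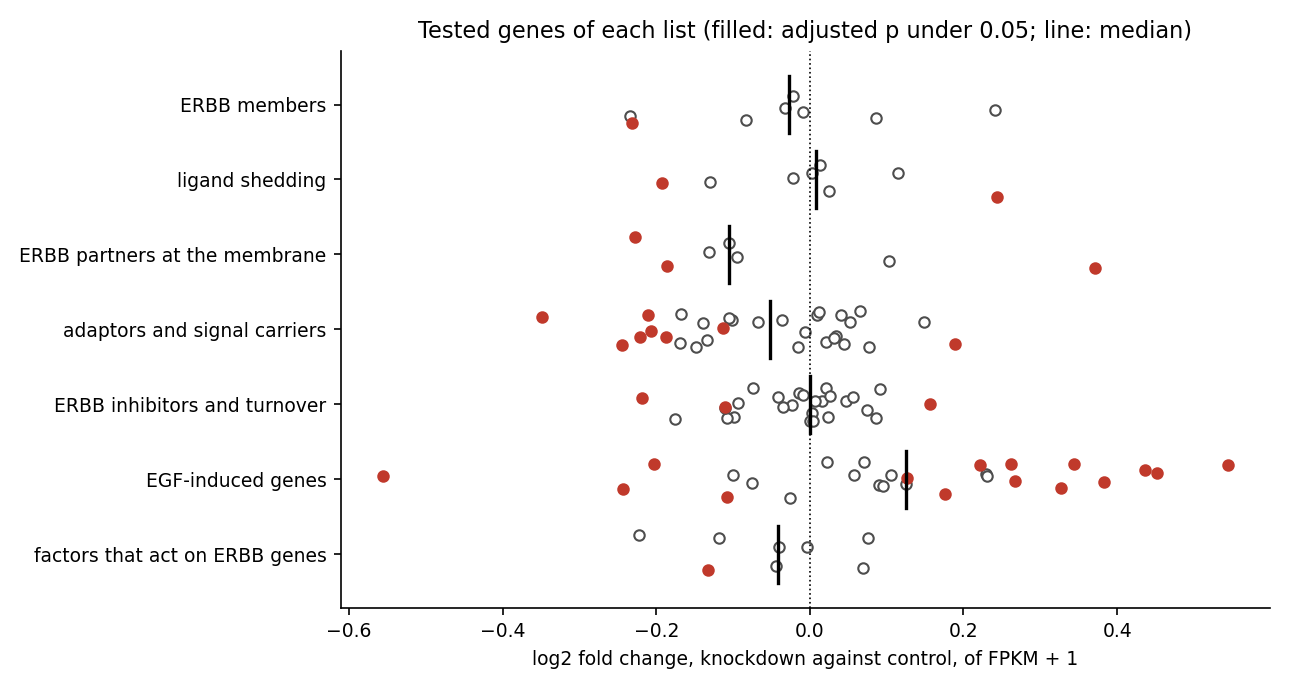
Log2 fold change of FPKM + 1, knockdown against control (horizontal axis), for each tested gene of the ERBB members and of 6 lists of related genes; filled points have adjusted p under 0.05 and lines are list medians. The signal carriers have a median of -0.05 and the EGF-induced genes one of 0.12, and CCND1 is the leftmost point at -0.56.

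The 3′ UTR words described for ERBB3 were also counted in the lists. They were chosen on fold changes that include these genes, so the counts are a description and not a test. The counts and shares are also not adjusted for the length or GC share of the 3′ UTR. Over all genes with a 3′ UTR, 26.6% of those with a word and 6.38% of those with neither were lower. The shares called higher were 3.62% and 13.6%. Among the members, 3 of 8 tested hold a word, of which 1, ERBB3, was lower, and 0 of the 5 others were. Of the signal carriers, 14 of 30 hold a word, with 6 of these lower (NRAS, SOS1, SOS2, PIK3CA, PIK3R1 and JAK1) against 1 of the 16 without. Of the EGF-induced genes, 7 of 27 hold a word, with 1 lower and 4 higher, and the 20 without had 3 lower and 7 higher. No hairpin sequence is given in these sources, and the part of these words in the fall of ERBB3 was not tested.

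Markers of other cell types were also read. Fibroblast markers summed to 62.5 to 66.2 FPKM in control and 55.6 to 57.8 in knockdown, with 5 of 8 below 0.5 FPKM in all libraries. Most of this sum was LUM, at 57.6 ± 1.95 and 50.7 ± 1.25 FPKM (SD, n = 3). COL1A2, a collagen gene of the same list, was also lower (-0.18), while COL1A1 was not (0.00721, limma adjusted p = 0.965). With any 1 library left out, 1 of the 3 fibroblast markers tested was lower. Biliary markers summed to 274 to 276 and 273 to 276 FPKM, mostly KRT19 at 175 ± 0.479 and 172 ± 2.42. Within this list SOX9, a transcription factor, rose from 39.3 ± 0.396 to 46.0 ± 0.135 FPKM (0.22, limma adjusted p = 0.000745). The other biliary markers tested, EPCAM (-0.11, limma adjusted p = 0.0522), SPP1 (-0.10) and KRT19 (-0.03), had negative values and did not pass. Of the hepatocyte markers TF and FGB were lower and 8 of 10 did not pass. Immune markers to 16.2 to 17.7 and 16.4 to 17.9, with 4 of 6 immune markers below 0.5 FPKM in all libraries. The part of these markers in the ERBB3 result was not tested.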

How the data were processed

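RNA sequencing libraries of Huh7 cells (3 shcontrol, 3 shTRIM15) were made with a directional kit after mRNA enrichment, per the labels' protocols. The deposited table gives FPKM values computed by the authors, with 1 column per library. Aligner, counting and use of strand are not given in the sources used here. The submitters' processing notes list genome build mm10, a mouse build, but all 58735 identifiers, starts, ends and strands equal human GENCODE 29 (GRCh38), and 0 identifiers have the mouse form. Multiplied by gene length, 100% of the FPKM values were whole multiples of a step (tolerance 0.01), and whole reads were recovered from them. Groups come from sample titles. A linear model on log2(FPKM + 1) with moderated variances and a mean-variance trend (limma 3.58.1, R 4.3.3) was fitted across all genes tested. In simulated data it recovered 6.84% of 1.2-fold changes, 65.5% of 1.5-fold and 83.8% of 2-fold changes, and called 0.0655% of unchanged genes. Far fewer genes were changed there than were called here, so these rates may differ from those in the data. An uncalled gene may still have a small change. The members and the gene lists were chosen with earlier results of these data known. Genes named were all members, TRIM15, up to 4 per direction with the largest change past the threshold from each list, and the 3 protein-coding genes of mean FPKM of at least 5 with the nearest profile to each receptor; others were named after their values were seen. The 3′ UTR words and the 2 ligand ratios were added after the data were seen. Alternatives were other pseudocounts, filters, scalings and variance models, voom on whole reads, a replicate block and each library left out.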

Additional observations from a re-analysis of the deposited data

How the results depend on the processing

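The number of members called stayed at 1 in all 15 alternatives, and that member was ERBB3 each time. The number of genes called, 2824, was 1770 to 2339 with 1 library left out (1869, 1871 and 1770 without knockdown replicate 1, 2 and 3). It was 1888 without a filter, 1913 with replicate number as a block and 4182 with voom on whole reads. In voom 2360 of these were higher, and the median log2 fold change over all genes tested was 0.0235, against 0.00143 in the main fit. Library sizes implied by the FPKM values differed from the summed reads by -0.37% to -0.36% in control and 1.04% to 1.27% in knockdown. With the block, ERBB3 remained past the threshold (limma adjusted p = 0.0231), while 7 of the 31 named genes lost their call. Same-numbered libraries correlated best with each other, but weakly (0.00862 to 0.0133). ERBB4 changed sign, to 0.0123 with voom, 0.0133 without control replicate 2, and 0.0126 and 0.0138 without knockdown replicate 1 and 3, with no call in any; it ranged from -0.0531 to 0.0138 with 1 library left out. Values near 0 moved by over 1.5 times with 1 library left out for EGFR (-0.05 to -0.01) and ERBB2 (-0.05 to -0.0026). Without the pseudocount of 1, in voom, low genes had larger values (BTC 0.40, FOSB 1.27, EGR1 0.86). TRIM15 remained lower and past the threshold throughout (-0.95 to -0.65). Of 24 named genes called, 15 kept their call in every alternative, and 0 of the 7 uncalled ones gained one. Where 1 library of a group was left out, 2 libraries stood for that group. Few reads limit HBEGF, BTC, NRG1 and TGFA. The cause of these shifts was not tested.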
